A study of Mus musculus with 6 samples.

Results

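The 10 genes described here are the core circadian clock genes Per1, Per2, Per3, Clock and Arntl, the clock output genes Dbp, Tef and Hlf, and the nuclear receptor genes Nr1d1 and Nr1d2. They were taken by gene symbol from the arrays' own annotation. After names were updated through RefSeq, the 55681 probes held 34741 distinct gene names. The 10 genes have 13 probes. All 13 were well above the local background on all 6 arrays, so none was lost to the filter on dim probes. The arrays were one-colour Agilent mouse expression arrays of spleen RNA from the strain B10.BALB-16.C2A, whose mice the series title calls congenic. The first group received 900 cGy of total body irradiation (TBI) from an X-ray irradiator and its spleens were taken 24 h later. The second group, labelled 0 cGy, consisted of resting mice that were not irradiated. Each group has 3 arrays, and each array holds a pool of 3 mice, so the spread between arrays is a spread between pools. The labels used here give no hour of harvest, light schedule, sex or age, and a difference in the hour of harvest and an effect of irradiation cannot be told apart from these labels.

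The mammalian clock is a feedback loop of transcription. CLOCK and its partner BMAL1, the product of Arntl, bind E-box elements and activate the Per and Cry genes, whose proteins return to the nucleus and inhibit that activation. The same activators drive Nr1d1 and Nr1d2, which encode the REV-ERB repressors of Arntl, and the PAR bZIP genes Dbp, Tef and Hlf, whose proteins bind D-box elements in their own targets. Most tissues, the spleen included, carry such a clock, and the RNA of several of these genes swings widely over the day.

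The promoters below show the elements through which the loop is known to work, in the members where those letters were found. RefSeq start sites of the build GRCm38.p6 were available for 9 of the 10 members, with 14 start sites in all. The 250 bases before each start were searched on both strands for 5 motifs: CACGTG (the E-box), CACGTT (a variant E-box), TTANGTAA (the D-box), and TAGGTCA and TGGGTCA (forms of the element bound by ROR and REV-ERB proteins). A motif was found before 5 of these start sites, in 4 members, and CACGTG in 2 members. Dbp, Hlf, Nr1d2, Arntl and Clock had no match in any window. Capitals mark the motif. The Per1 window (chr11:69098699-69098948, plus strand) has CACGTG beginning 166 bases before the start. The Per3 window (chr4:151044666-151044915, minus strand) has the D-box TTATGTAA at 205 and at 158 bases. The Tef window (chr15:81802423-81802672, plus strand) has CACGTG at 127 bases. The Nr1d1 window (chr11:98775378-98775627, minus strand) has AACGTG, the reverse complement of CACGTT, at 28 bases.
Per1: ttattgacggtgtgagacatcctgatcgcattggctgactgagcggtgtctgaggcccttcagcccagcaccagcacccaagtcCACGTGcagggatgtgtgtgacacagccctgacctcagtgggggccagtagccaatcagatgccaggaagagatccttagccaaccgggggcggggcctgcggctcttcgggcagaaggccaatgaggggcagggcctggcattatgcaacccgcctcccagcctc
Per3: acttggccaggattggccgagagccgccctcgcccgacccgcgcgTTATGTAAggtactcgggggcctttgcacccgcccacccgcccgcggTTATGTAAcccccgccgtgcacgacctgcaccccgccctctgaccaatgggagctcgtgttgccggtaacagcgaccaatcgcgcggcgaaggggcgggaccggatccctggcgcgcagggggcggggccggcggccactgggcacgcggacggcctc
Tef: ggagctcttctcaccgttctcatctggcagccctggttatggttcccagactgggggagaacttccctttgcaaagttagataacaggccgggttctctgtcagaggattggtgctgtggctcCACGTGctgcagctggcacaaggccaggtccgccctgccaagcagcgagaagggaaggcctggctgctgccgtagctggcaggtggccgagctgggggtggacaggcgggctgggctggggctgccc
Nr1d1: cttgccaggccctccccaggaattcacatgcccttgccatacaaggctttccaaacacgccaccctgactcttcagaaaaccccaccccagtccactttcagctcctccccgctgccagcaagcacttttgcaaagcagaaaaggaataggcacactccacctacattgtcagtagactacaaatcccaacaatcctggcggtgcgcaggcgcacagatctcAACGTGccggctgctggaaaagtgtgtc
Among 32851 RefSeq promoter windows of the same length, 6.02% hold CACGTG, 3.85% CACGTT, 2.06% TTANGTAA, 2.23% TAGGTCA and 3.24% TGGGTCA. The share of windows that hold any of the 5 motifs was not counted, so the 5 of 14 start sites have no matching background. These matches describe letters in a window, and binding was not measured.

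Each level below is the log2 of a probe's processed intensity minus the log2 of the 75th percentile of that array, so a level of 0 lies at that percentile. Levels of different probes are not set against each other, because a probe's brightness also depends on its sequence. Changes are 900 cGy minus 0 cGy on the log2 scale, from a limma fit across all 39683 probes tested, with Benjamini-Hochberg adjustment over all of them and a threshold of 0.05. Where a gene has several probes, the brightest stands for it. Of the 10 members, 8 were higher at 900 cGy, 1 was lower and 1 did not pass. The background for these counts is wide: of 26642 genes tested, 28% were called higher, 30.6% lower and 58.6% either way. The groups did not overlap for 9 of the 10 members, against 67.4% of all genes tested (31.7% with the irradiated arrays higher and 35.7% lower). The median change of the members was 1.52, against -0.06 over all genes tested. By probe, 10 of 13 were higher, 1 was lower and 2 did not pass, where 26.4% of all probes were called higher, 31% lower and 57.5% either way. The groups did not overlap for 11 of 13 probes, against 65.7% of all probes (29.9% higher and 35.9% lower).

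**Figure D1:**
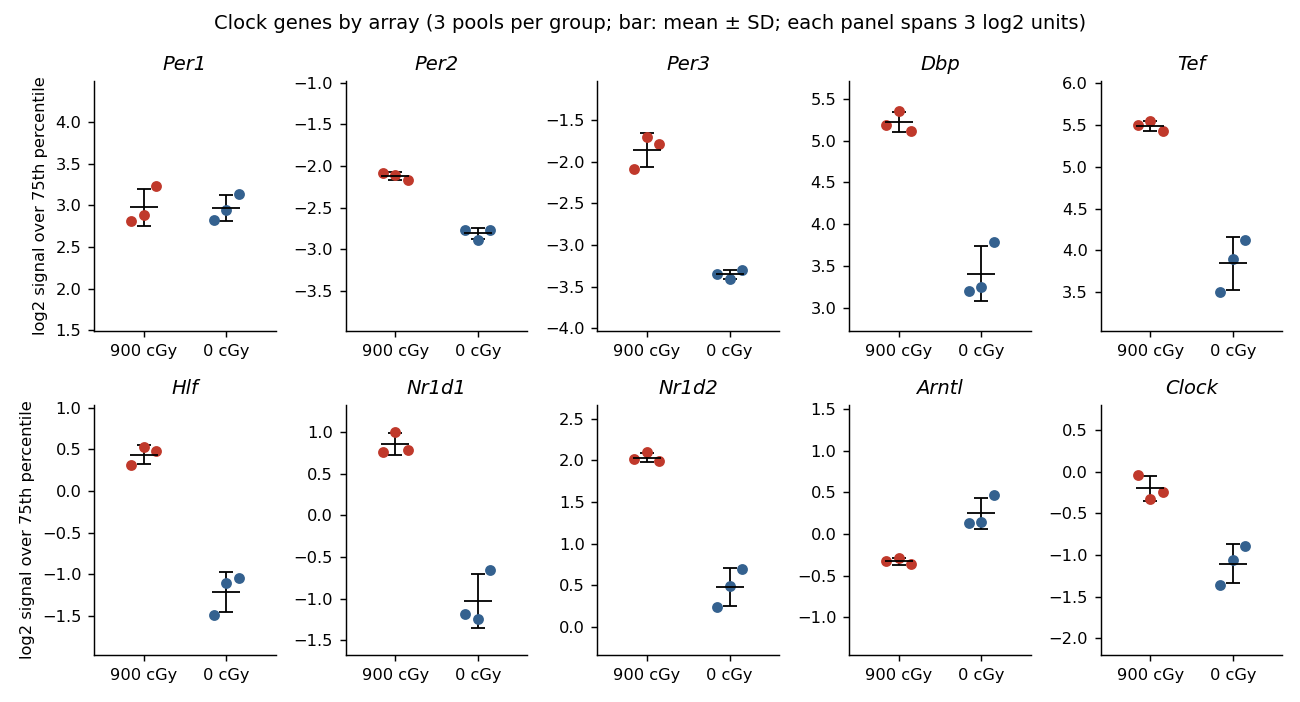
Log2 level of each of the 10 clock genes by array (brightest probe, relative to the array's 75th percentile), with the 3 arrays at 900 cGy left of the 3 arrays at 0 cGy and bars giving each group's mean ± SD. Each panel spans 3 log2 units. The groups are separate for 9 genes and mixed for Per1.

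Clock encodes the histone acetyltransferase subunit of the activating pair. Its probe (mm9, chr5:76641377-76641436) read -0.04, -0.32 and -0.24 on the irradiated arrays, against -1.35, -1.06 and -0.89 on the unirradiated arrays. All irradiated values lay above all unirradiated ones. The change was 0.90 ± 0.15 (SE, n = 3 each), a 1.87-fold higher level, with a limma adjusted p of 0.00225. Arntl, the gene of the partner BMAL1, went the other way. Its probe (mm9, chr7:120457261-120457320) read -0.33, -0.28 and -0.37 at 900 cGy, against 0.13, 0.15 and 0.47 at 0 cGy, with no overlap. The change was -0.57 ± 0.12, a ratio of 0.672, with a limma adjusted p of 0.00556. The arrays lie in both rows of 1 slide, and row 1 holds 1 irradiated and all 3 unirradiated arrays. With slide row as a block the Arntl change was -0.58. Row 2 holds irradiated arrays only, so that fit takes the change from row 1, where 1 irradiated array stands for its group. The fit within row 1 alone gives the same change by design and is no further check.

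The Per genes encode the PERIOD repressors, and they differed among themselves. The brighter Per1 probe (mm9, chr11:68923364-68923423) read 2.81, 2.88 and 3.23 at 900 cGy, against 2.82, 2.94 and 3.14 at 0 cGy. The groups overlapped fully. The change was 0.01 ± 0.14, with a 95% interval of -0.34 to 0.35 and a limma adjusted p of 0.972. That interval leaves room for a ratio between 0.790 and 1.28. A second, much dimmer Per1 probe starts 3469 bases away and also did not pass, with a change of 0.08 ± 0.14 and a limma adjusted p of 0.656. Per2 (mm9, chr1:93313046-93313105) read -2.08, -2.10 and -2.17 at 900 cGy, against -2.77, -2.89 and -2.77 at 0 cGy. These groups were tight and separate. The change was 0.69 ± 0.08, or 1.61-fold, with a limma adjusted p of 0.000698. When the arrays were scaled to their spike-in controls instead, the Per2 change was 0.41 with a limma adjusted p of 0.0961. Per3 (mm9, chr4:150379256-150379315) had the largest change of the family. It read -2.09, -1.70 and -1.79 at 900 cGy, against -3.35, -3.41 and -3.30 at 0 cGy, a change of 1.49 ± 0.12, or 2.81-fold, with a limma adjusted p of 0.000158.

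Dbp, Tef and Hlf encode the PAR bZIP activators, the clock's output factors, and all were higher after irradiation by similar amounts. The brighter Dbp probe (mm9, chr7:52965322-52965381) read 5.19, 5.35 and 5.12 at 900 cGy, against 3.20, 3.24 and 3.78 at 0 cGy. The change was 1.81 ± 0.18, or 3.52-fold, with a limma adjusted p of 0.000283. The other Dbp probe, 139 bases away, gave 1.90 ± 0.19. Every irradiated array lay more than a log2 unit above every unirradiated one on both probes. Tef (mm9, chr15:81657221-81657280) read 5.50, 5.55 and 5.43 at 900 cGy, against 3.50, 3.89 and 4.13 at 0 cGy, a change of 1.65 ± 0.16, or 3.14-fold, with a limma adjusted p of 0.000313. Hlf (mm9, chr11:90200696-90200755) read 0.31, 0.53 and 0.48 at 900 cGy, against -1.48, -1.10 and -1.04 at 0 cGy. Its change was 1.65 ± 0.14, or 3.13-fold, with a limma adjusted p of 0.00019.

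The REV-ERB repressor genes were also higher. By brightest probe Nr1d1, which encodes REV-ERB alpha, had the largest change of the 10 members. The dimmer Dbp probe changed slightly more, by 1.90. The Nr1d1 probe is shown because it is the single measurement behind the Nr1d1 value. Per the file, its 60 bases are placed over mm9 chr11:98630526-98631028, a span of 503 bases.
Nr1d1 probe: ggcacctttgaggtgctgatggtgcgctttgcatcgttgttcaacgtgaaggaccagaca
It read 0.76, 1.0 and 0.79 at 900 cGy, against -1.18, -1.24 and -0.66 at 0 cGy. The change was 1.88 ± 0.18, or 3.67-fold, with a limma adjusted p of 0.000251. Nr1d2, which encodes REV-ERB beta, has 2 probes starting 685 bases apart. The brighter one (mm9, chr14:19036568-19036627) read 2.02, 2.09 and 1.99 at 900 cGy, against 0.24, 0.50 and 0.70 at 0 cGy. The change was 1.56 ± 0.13, or 2.94-fold, with a limma adjusted p of 0.000178. The other probe gave 1.33 ± 0.15, or 2.51-fold, so both Nr1d2 probes had the same direction.

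Placed among all 26642 genes tested, the changes of Nr1d1 and Dbp exceeded those of 97.1% and 96.8% of genes. Tef, Hlf, Nr1d2 and Per3 exceeded 95.3%, 95.2%, 94.3% and 93.4%. Clock and Per2 exceeded 84.0% and 80.4%, Per1 lay near the middle at 53.9%, and Arntl exceeded 21.2%. By comparison, 14.2% of genes tested were called higher with at least a 2-fold change.

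**Figure D2:**
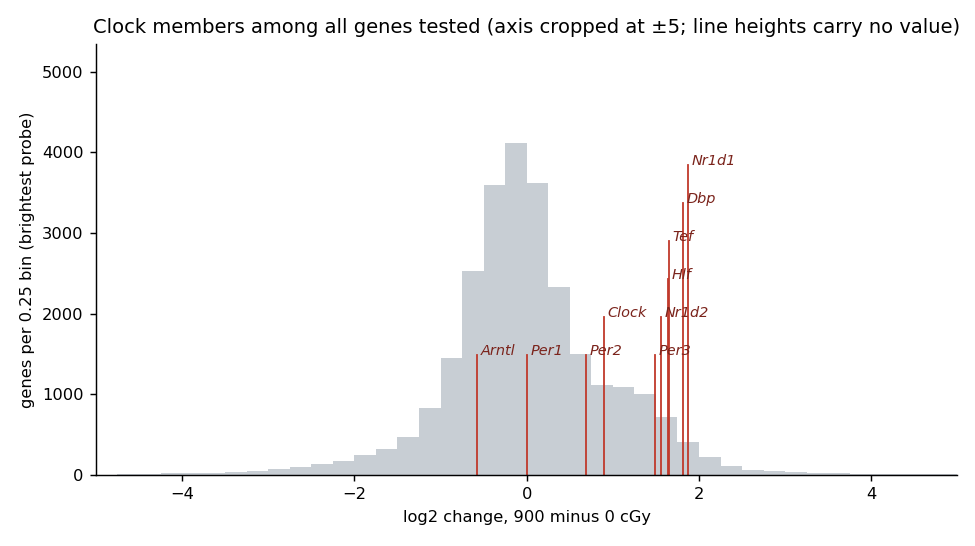
Histogram of the log2 change (900 cGy minus 0 cGy) of the 26642 genes tested, with the 10 clock genes marked by lines. 6 members lie in the upper tail, Per1 lies near the middle and Arntl lies on the negative side.

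The levels also varied within the groups. Among the unirradiated arrays, replicate 3 was the highest for 10 of 10 members. Its excess over the mean of the others was between 0.06 for Per2 and 0.56 for Dbp and for Nr1d1. For 8 of the 10 members the range was wider among the unirradiated arrays than among the irradiated ones. The exceptions were Per1 and Per3. How often either pattern holds among all genes was not counted, so neither is shown to be particular to the members. Over the probes tested, unirradiated replicate 3 was the nearest to the irradiated arrays (r of 0.958 to 0.960, against 0.942 to 0.952 for the other unirradiated replicates). The unirradiated arrays were also less alike (r of 0.988 to 0.992) than the irradiated ones (r of 0.995 to 0.997).

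Differences between 2 genes of the same array do not depend on how the array is scaled. They were computed for 8 pairs, namely all pairs within a gene family and the pair of Clock and Arntl. With 3 arrays against 3, the smallest two-sided p an exact permutation test can give is 0.1. The change of Clock exceeded that of Arntl by 1.48, and that of Per3 exceeded those of Per1 by 1.49 and Per2 by 0.80. The change of Per2 exceeded that of Per1 by 0.68, and that of Nr1d1 exceeded that of Nr1d2 by 0.32. In these 5 pairs the groups did not overlap, and each had an exact permutation p of 0.1, or 0.16 after adjustment over the 8 pairs. How often pairs of other genes do not overlap was not counted, so this is not shown to be particular to the members. Among the PAR bZIP genes the differences were smaller. Dbp exceeded Tef by 0.16 (exact permutation p = 0.2, adjusted 0.267) and Hlf by 0.17 (exact permutation p = 0.5, adjusted 0.571), and Tef and Hlf differed by 0.01 (exact permutation p = 1).

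Other genes of the clock were read from a list of 32, of which 31 could be tested. Of these, 14 were higher at 900 cGy, 8 were lower and 9 did not pass, with a median change of 0.25 and a range of -1.73 to 2.34. The share called higher among all genes tested was 28% and the share called lower 30.6%. Among 6 partners and repressors, 4 were higher and 1 was lower. Cry1, a repressor that pairs with the PERIOD proteins, read -4.88, -5.82 and -5.35 at 900 cGy, against -4.64, -4.22 and -4.19 at 0 cGy, a change of -1.0 ± 0.25 (limma adjusted p = 0.0146). Its paralog Cry2 read 2.02, 2.12 and 2.03 at 900 cGy, against 1.19, 1.46 and 1.5 at 0 cGy, a change of 0.67 ± 0.11 (limma adjusted p = 0.00247). The Cry1 levels were dim, and its change was -0.93 with a limma adjusted p of 0.0522 without unirradiated replicate 2. With slide row as a block, where the change rests on 1 irradiated array, the Cry1 change was -0.53. With normexp background correction the Cry1 change was -0.33. The repressor genes Bhlhe40, Nfil3 and Ciart were higher by 0.91, 0.69 and 0.69. Nfil3 encodes the factor that competes with the PAR bZIP proteins for D-boxes, and its limma adjusted p was 0.00603. Ciart had a limma adjusted p of 0.0176, and of 0.0601 without irradiated replicate 2. With slide row as a block the Ciart change was 0.60, again resting on 1 irradiated array. With spike-in scaling Nfil3, Ciart and Cry2 had limma adjusted p-values of 0.127, 0.0945 and 0.0936. Bhlhe41 had a change of 0.25 and a limma adjusted p of 0.0566, which was 0.0474 without irradiated replicate 1. Its second, dimmer probe was higher by 0.56 (limma adjusted p = 0.0122), and the mean of both probes by 0.40 (limma adjusted p = 0.00955).

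Rora encodes a ROR receptor, one of a family that activates Arntl through the element that the REV-ERB proteins occupy. Rora read 0.13, 0.17 and 0.05 at 900 cGy, against -1.18, -1.25 and -0.79 at 0 cGy, a change of 1.19 ± 0.14 (limma adjusted p = 0.000564). Rorb and Arntl2 did not pass, with changes of 0.10 and -0.04. The Arntl2 value rests on 1 of its 3 probes, the others being too dim to be tested. Of those dim probes, 1 had means of -5.50 at 900 cGy and -7.35 at 0 cGy without overlap, and 1 overlapped. Npas2, a paralog of Clock, was not tested, being well above background on 2 of 3 irradiated arrays and 0 of 3 unirradiated arrays. Of 9 genes for enzymes that modify the clock proteins, 5 were higher, 1 was lower and 3 did not pass. Among all genes tested, 28% were called higher and 30.6% lower. Usp2, a deubiquitinase gene, read -1.03, -0.81 and -0.94 at 900 cGy, against -2.02, -1.93 and -2.15 at 0 cGy, a change of 1.1 ± 0.10 (limma adjusted p = 0.000257). Fbxl21, a ubiquitin ligase gene, entered the fit through the irradiated arrays, being well above background on 3 of 3 of them and on 1 of 3 unirradiated arrays. It read -3.9, -4.1 and -4.14 at 900 cGy, against -6.27, -7.25 and -5.65 at 0 cGy. Its fitted change of 2.34 was 0.81 with normexp background correction, so its size is not settled. Fbxl21 is 1 of the 5 enzyme genes and of the 14 further genes counted as higher, and it sets the top of the range of their changes. When probes had to be well above background on all 6 arrays, which leaves Fbxl21 out, 14 of 30 further genes were higher. The count stayed at 14 because at least 1 other gene passed only under that filter. Of all 36418 probes tested under it, 9714 were higher.

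Among 7 corepressors and other regulators, 5 were lower and none was higher (0 of 7 by limma, also at an unadjusted p under 0.05). For these counts and those of the output genes below, 30.6% of all genes tested were called lower and 28% higher. Timeless and Tipin encode partners best known for work at the DNA replication fork. Tipin read 1.76, 1.65 and 1.69 at 900 cGy, against 4.0, 3.55 and 2.72 at 0 cGy, a change of -1.73 ± 0.31 (limma adjusted p = 0.00334). Over 19 other ways of processing the arrays the Tipin change ranged from -2.08 to -1.44 and was called in 18. Timeless read 1.73, 1.98 and 2.08 at 900 cGy, against 3.31, 3.12 and 2.57 at 0 cGy, a change of -1.07 ± 0.21 (limma adjusted p = 0.00471). Of 5 clock-controlled output genes, 3 were higher, 1 was lower and 1 did not pass. Por, which encodes the electron donor of cytochrome P450 enzymes, read 3.99, 4.0 and 4.02 at 900 cGy, against 2.57, 2.59 and 2.56 at 0 cGy, a change of 1.43 ± 0.08 (limma adjusted p = 6.97e-05). Wee1, a kinase gene of the cell cycle, read -1.44, -1.25 and -1.28 at 900 cGy, against 0.09, -0.18 and -0.55 at 0 cGy, a change of -1.11 ± 0.17 (limma adjusted p = 0.00185).

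**Figure D3:**
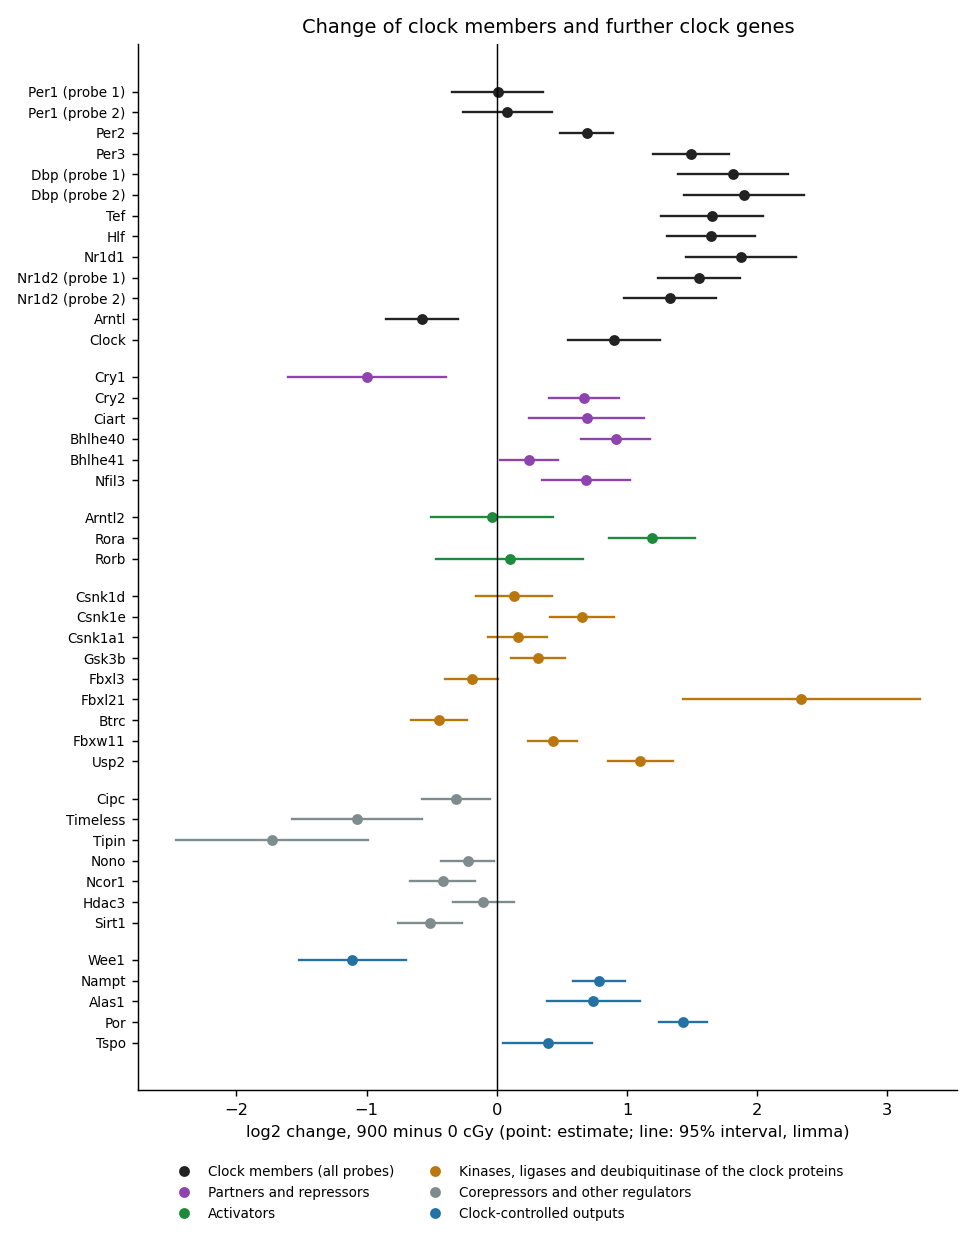
Log2 change (900 cGy minus 0 cGy; points) with 95% intervals (lines) from the limma fit, for the 13 probes of the clock members and, coloured by role, the brightest probe of further clock genes. The probes of Nr1d1, Dbp, Tef, Hlf, Nr1d2 and Per3 lie between 1.33 and 1.90, Clock and Per2 lie lower, the Per1 intervals cross 0 and Arntl lies below 0, while the 7 corepressors and other regulators all have points below 0.

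The marker RNA of several cell types differed between the groups. In bulk RNA, fewer cells of a type and less RNA per cell cannot be told apart. The label spleen fits the lymphoid markers in that 7 of 7 B cell and 7 of 7 T cell markers were well above background on all 6 arrays. Summed linear signals are given in multiples of the array's 75th percentile. Beside the marker counts, 28% of all genes tested were called higher and 30.6% lower. The B cell markers summed to 49.0 to 54.5 at 900 cGy, against 283 to 365 at 0 cGy, and 7 of 7 were lower. The T cell markers summed to 19.2 to 19.6 at 900 cGy, against 45.6 to 65.2 at 0 cGy, with 6 of 7 lower and 1, Cd4, higher. The erythroid markers summed to 1.26 to 1.63 at 900 cGy, against 53.9 to 170.3 at 0 cGy, with 6 of 6 lower, and Rhd stood well above background on 0 of 3 irradiated arrays.

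Markers of other cells ran the opposite way. The macrophage markers summed to 590.5 to 609 at 900 cGy, against 180.1 to 194 at 0 cGy, with 7 of 7 higher. The stromal markers summed to 108 to 112 at 900 cGy, against 33.1 to 43.0 at 0 cGy, with 6 of 6 higher, and the endothelial markers to 28.9 to 30.1 at 900 cGy, against 11.2 to 12.9 at 0 cGy, with 5 of 6 higher. The adipocyte markers summed to 40.1 to 44.9 at 900 cGy, against 2.88 to 4.4 at 0 cGy, with 6 of 6 higher. The markers of exocrine pancreas, an organ that lies against the spleen, summed to 955 to 1159.9 at 900 cGy, against 2.0, 142.5 and 27.1 in unirradiated replicates 1, 2 and 3, with 6 of 7 higher. The part of these cell types in the clock gene changes was not tested. Targets of the glucocorticoid receptor, which can reset clock genes, summed to 34.0 to 39.9 at 900 cGy, against 24.4, 29.4 and 40.3 at 0 cGy. Of these 6 genes 5 were higher, and these 5 did not overlap between the groups. Among all genes tested, 28% were called higher. The groups did not overlap for 67.4% of all genes, 31.7% with the irradiated arrays higher. The glucocorticoid sums overlapped. The remaining gene, Tsc22d3, whose signal is part of each sum, read 3.81, 4.0 and 4.13 at 900 cGy, against 3.92, 4.25 and 4.81 at 0 cGy, a change of -0.35 that did not pass.

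**Figure D4:**
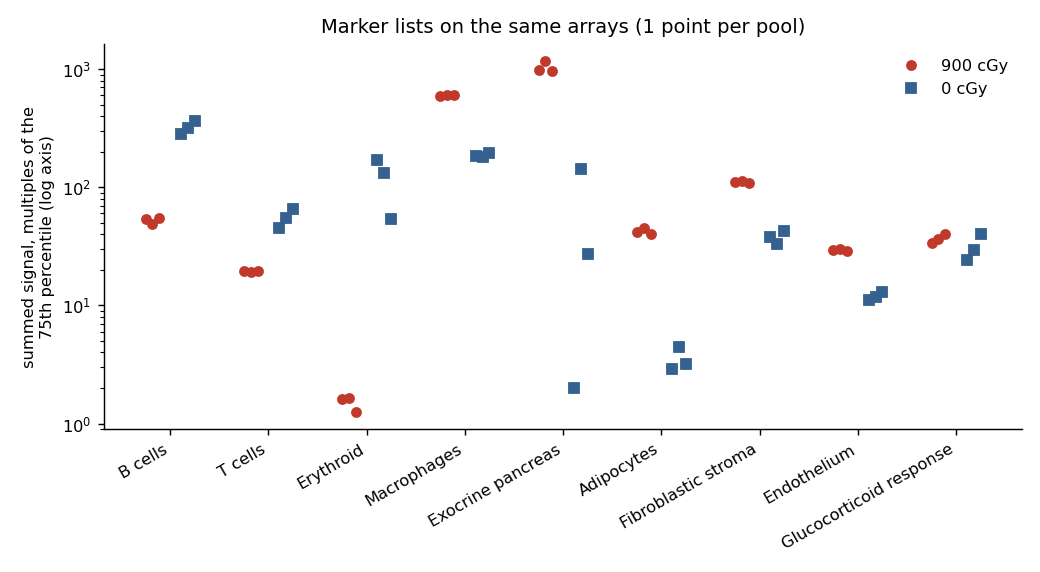
Summed linear signal of each marker list (log axis, multiples of the array's 75th percentile), with the 3 arrays at 900 cGy left of the 3 arrays at 0 cGy. Lymphoid and erythroid sums are lower at 900 cGy, macrophage, pancreas, adipocyte, stromal and endothelial sums are higher, and the glucocorticoid sums overlap.

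Nr1d1, the member with the largest change by brightest probe, was used to find genes of like pattern. Likeness was Pearson's r over the 6 arrays among 16803 genes. The most alike were Arhgef16 (r = 0.9999) and Hecw2 (r = 0.9999), and 3823 genes had an r over 0.95. The arrays form separate groups, so r runs high for genes that separate them cleanly with the irradiated arrays higher.

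The direction of the member changes was compared over 19 other ways of processing the arrays. Not all of these could move a change. Other filters on dim probes, a replicate block and another error model return the same value by design. Slide row as a block and row 1 alone share a single value. Dbp ranged from 1.53 to 2.0, Nr1d1 from 1.59 to 2.06 and Per3 from 1.14 to 1.61. Arntl ranged from -0.86 to -0.47 and Clock from 0.62 to 1.06, while Per1 ranged from -0.28 to 0.09 and took both signs. For the members called higher other than Per3, the lowest value came from scaling to the spike-in controls, which moved the median change of all probes by -0.28. Under that scaling 7 members were higher and 1 was lower, and 28.7% of all called probes were higher, against 46.0% under the scaling used here.

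**Figure D5:**
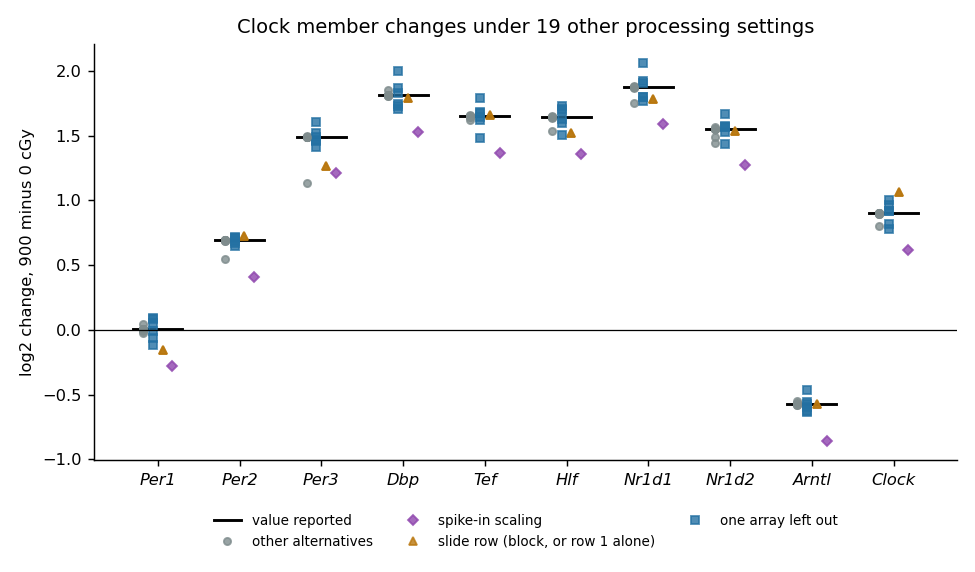
Log2 change (900 cGy minus 0 cGy) of each of the 10 clock genes under the 19 alternatives, with the reported value marked. Per1 crosses 0, Arntl stays below 0 and the other 8 stay above 0.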

How the data were processed

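Spleen RNA of 3 irradiated and 3 unirradiated pools was measured on 6 one-colour arrays on 1 slide in 1 scan. The authors used Agilent Feature Extraction 10.5.1.1, per the submitters' processing notes, and each file gives a deposited processed intensity per spot that had been background-subtracted and detrended, per the file headers. The authors also deposited a table of log2 values. Set against the scanner values, these were scaled at the 75th percentile with each probe's median removed, and they served as an alternative. Groups came from the sample titles.

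Here log2 processed intensity minus the log2 75th percentile of 59305 non-control spots was fitted with limma 3.58.1 in R 4.3.3. Outlier spots, 91 to 146 per array, were left out, and spots of one probe were averaged. Probes had to be well above background on all 3 arrays of a group, which 39683 of 55681 were. On every array 0 spots were saturated, and 39036 to 41267 probes were well above background. Precision is limited by having 6 arrays. The fit was also run on simulated data in which few probes were changed. In the data 57.5% of probes were called, so that run does not show how the fit does at such a share.

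Names came from the files, updated through RefSeq for 27235 probes by accession, 3581 by symbol and 565 by synonym, while 24300 kept the file's name. The 10 members and all lists were chosen with earlier results of these data known. Named by rule were all members, the 3 genes most like Nr1d1, the partners, repressors and activators of the further list, and in its other groups the 2 genes with the largest change. Of the genes this rule names, some are not reported here. Cd4, Rhd and Tsc22d3 were named after their values were seen. Same-numbered arrays deviated together with r of 0.07, 0.11 and -0.01, so the numbers were not taken as pairs.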

Additional observations from a re-analysis of the deposited data

How the results depend on the processing

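Of 190 recomputed changes of the 10 members, 180 kept direction and side of the threshold, 8 changed sign, all of Per1, and 2 lost significance, Per2 with spike-in scaling (0.41) and Arntl within slide row 1 alone (-0.58). Of 303 for the further genes named, 277 did so, 9 changed sign, 13 lost and 4 gained significance. Within slide row 1 alone, with 1 irradiated array assumed to vary like the others, 0 members were lower, against 1. The 14 further genes higher became 7 with spike-in scaling and 7 within row 1, and the 8 lower became 5 with slide row as a block and 2 within row 1. Leaving out 1 array at a time gave 8 members higher and 1 lower each time, 12 to 15 further genes higher and 6 to 8 lower. Per1, which never passed, read -0.023 with normexp, -0.0068 with quantile normalization, -0.28 with spike-in scaling, -0.15 with row as a block and within row 1, and -0.12 to 0.091 with 1 array left out. Bhlhe41 was -0.034 with spike-in scaling. Rorb was -0.18 with spike-in scaling, -0.28 with row as a block and within row 1, and -0.090 to 0.29 with 1 array left out, and Arntl2 was -0.18 to 0.14 with 1 array left out. The fit with row as a block takes its change from row 1, so it repeats the change within row 1 and rests on 1 irradiated array. The replicate block, and settings that alter only the filter or the error model, leave a change as it was by design. The counts that kept direction therefore hold repeats. Fewer samples within row 1 widen the error, and the cause of the other shifts was not tested. The replicate block left 8 members higher and 1 lower, with 13 further genes higher and 7 lower, and the pairing by number was not borne out by the arrays. Signal over background limits the dim genes Cry1, Fbxl21 and Npas2.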
